A study of Mus musculus with 12 samples.

Results

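The genes described here carry out meiotic recombination and build the synaptonemal complex, and their messages were followed in whole testes of ageing mice. They were chosen by name, not by their values: 41 gene symbols were listed, and for each the rows of the transcript table that bear the symbol and match or share a splice junction with its annotation (class codes =, c, j or o) were added up. Of the 41 symbols, 40 were in the table, with 141 transcript rows of the 71967 assembled. Rnf212 had no row under its own symbol. The table as a whole held 24516 gene symbols by the same rule. The samples were testes of 12 wild-type C57BL/6 mice at post-natal months 3, 6, 12 and 18 (3M, 6M, 12M and 18M), with 3 mice per age. No mutation, transgene or treatment was given for any group. The RNA was depleted of ribosomal RNA and sequenced as total RNA, without a kit that marks strand. It was not stated whether the mice of an age came from 1 litter. Each p-value below sets a difference with age against the spread between these mice. The libraries held 50924104 to 71803379 assigned reads. Levels are given as FPKM, fragments scaled for the length of the transcript and the size of the library, which can be compared between genes, or as CPM, reads scaled for the size of the library alone, which are compared only within a gene.

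In the first meiotic division the homologous chromosomes of a spermatocyte find each other, are held together along their length and exchange DNA. SPO11 cuts the DNA at sites set by PRDM9, the meiotic recombinase DMC1 carries the broken ends into the homologue, and MSH4, MSH5 and MLH3 turn a few of these joints into crossovers. The synaptonemal complex is the protein ladder that zips the homologues together: SYCP2, SYCP3 and cohesin form its side rails and SYCP1 with the SYCE proteins its rungs. The kinases ATM and ATR watch over breaks and unpaired chromosomes. Male germ cells enter meiosis in waves throughout adult life, so that spermatocytes at all of these steps are present in an adult testis.

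All 40 measured genes were read in every mouse, and none of them passed the test for a change with age. The test was edgeR's quasi-likelihood test with p-values adjusted by the Benjamini-Hochberg method over all features, and a call needed an adjusted p of 0.05 or less. On the slope across the 4 ages 0 of 40 members were called, where 0.173% of all 25421 features were. Between 3M and 18M it was 0 of 40 (0.0685% of features), between 3M and 6M 0 of 40 (0.0686%), between 6M and 12M 0 of 40 (0.0403%), between 12M and 18M 0 of 40 (0.0201%), and for any difference among the ages 0 of 40 (0.0787%). Few features of any kind passed these tests, so that a count of 0 among 40 does not set the members apart from the rest. In simulated counts the 3M to 18M test recovered 0% of 1.5-fold changes, so that small changes could go uncalled. At an unadjusted p of 0.05 or less, 4 members stood out on the slope (10% of them, against 15.2% of features), 6 between 3M and 18M (15% against 12.0%), 2 between 6M and 12M (5.0% against 7.54%), 1 between 12M and 18M (2.5% against 3.52%), and 0 between 3M and 6M (3.92%) and for any difference (8.98%). DESeq2, run as an alternative, called 0 members in each of the 6 gene tests too, and 53 to 567 features.

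The differences themselves were small. The fitted 18M to 3M fold ranged over the 40 members from 0.796 (Meioc) to 1.18 (Ccnb1ip1). The median size of the log2 fold change, either way, was 0.095, beside 0.12 over the 18130 genes with a symbol tested between these ages. For 39 of 40 members the 95% interval of the log2 fold change lay within 1 of 0, that is, within 2-fold either way, as it did for 85.3% of the genes, and for 35 members (87.5%, against 62.9% of genes) it lay within 0.5 of 0. The exception to the first was Meioc. These intervals hold for 1 gene at a time and are not widened for the number of genes. Of the 40 members, 15 were higher and 25 lower at 18M than at 3M by their fitted value, where 51.5% of all features were higher and 48.5% lower, though it was 23 and 17 once transcript length was allowed for, as described with the lengths. The median log2 fold change was -0.026 for the members and 0.0068 for all features, and 0.019 and 0.011 with length allowed for. The members' own mice of an age differed by a median coefficient of variation of 7.13%, beside 10.2% for the genes tested on the slope, from 2.07% for Spo11 to 41.2% for Meioc.

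**Figure D1:**
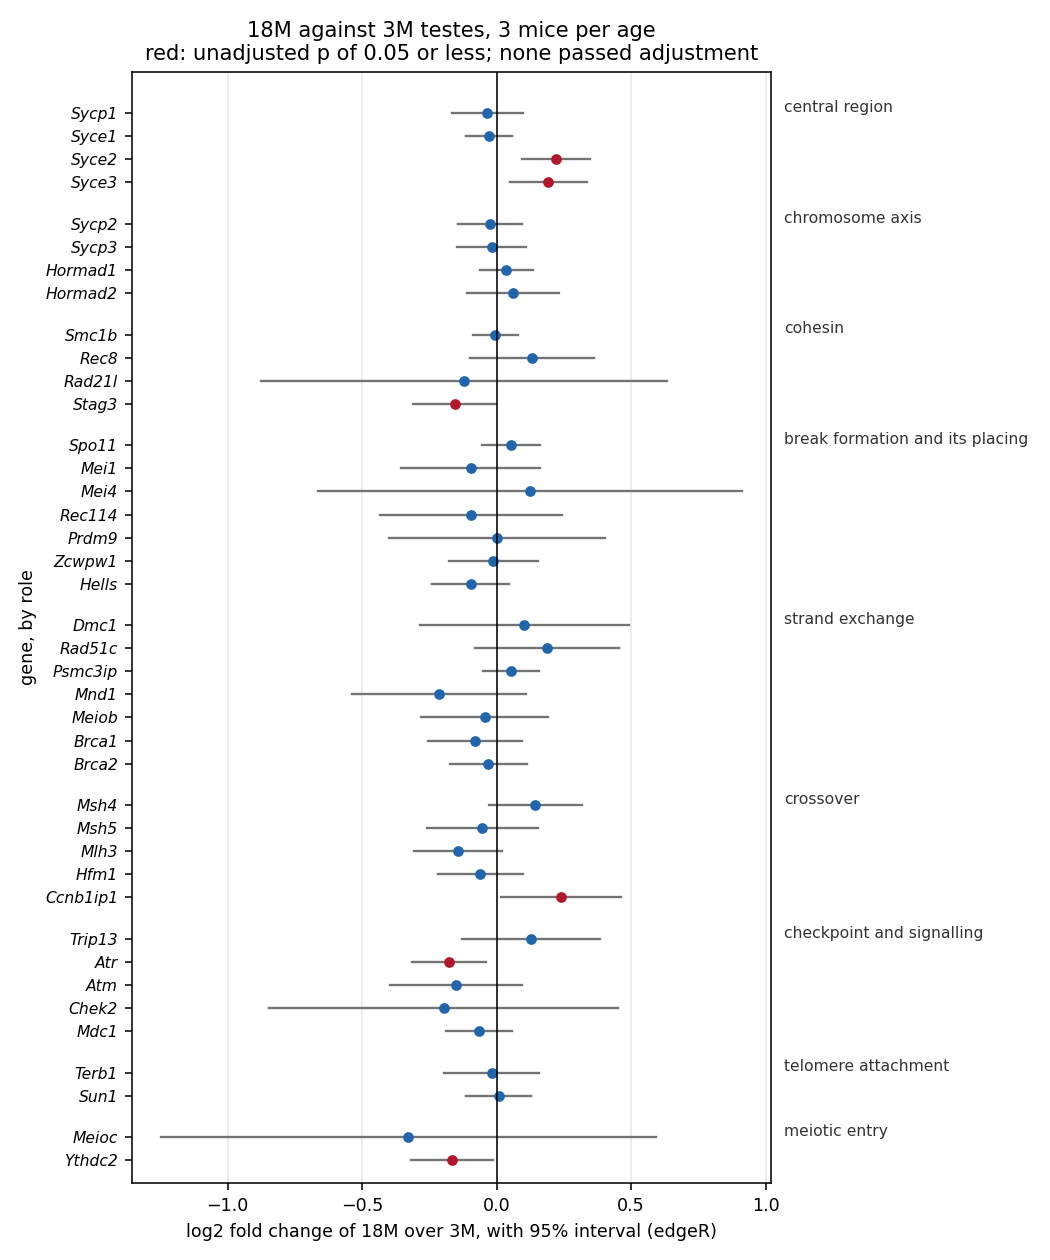
Fitted log2 fold change from 3M to 18M (horizontal axis) for the 40 measured genes, grouped by role, with bars for the 95% interval from edgeR. The points lie between -0.33 and 0.24, and the interval of 1 gene, Meioc, reaches beyond 1 from 0.

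Added over the 40 genes, the messages made up 1137 ± 23.7, 1137 ± 24.2, 1128 ± 9.24 and 1156 ± 11.6 FPKM from the youngest to the oldest age (SD, n = 3 mice each). Single mice ran from 1111 to 1165 FPKM. The 18M sum was 101.7% of the 3M sum on this scale, and 96.7% of it when the same genes were added as CPM, in which long genes weigh more. The sign of this small difference thus depended on the scale. In bulk tissue, fewer cells of a type and less RNA per cell cannot be told apart.

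The level of the genes spanned a wide range, from 193 FPKM for Syce1 to 0.122 for Mei4 (means over 12 mice). Syce2 (116 FPKM), Sycp3 (90.8), Stag3 (87.7), Psmc3ip (83.4) and Syce3 (76.7) followed Syce1. All but Psmc3ip of these 6 encode parts of the synaptonemal complex or of its cohesin core. At the other end stood Atm (1.5 FPKM), Rad21l (0.995), Chek2 (0.602) and Mei4. Of the 40 genes, 37 reached 1 FPKM and 16 (40%) reached 10 FPKM, beside 31.9% of the genes tested on the slope, and the medians were 8.11 and 3.96 FPKM. In the order of levels, 33 of 39 pairs of neighbours had overlapping ranges over the 12 mice. The steps without overlap were Syce1 over Syce2, Syce2 over Sycp3, Syce3 over Smc1b, Sun1 over Meioc, Meioc over Zcwpw1 and Chek2 over Mei4.

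**Figure D2:**
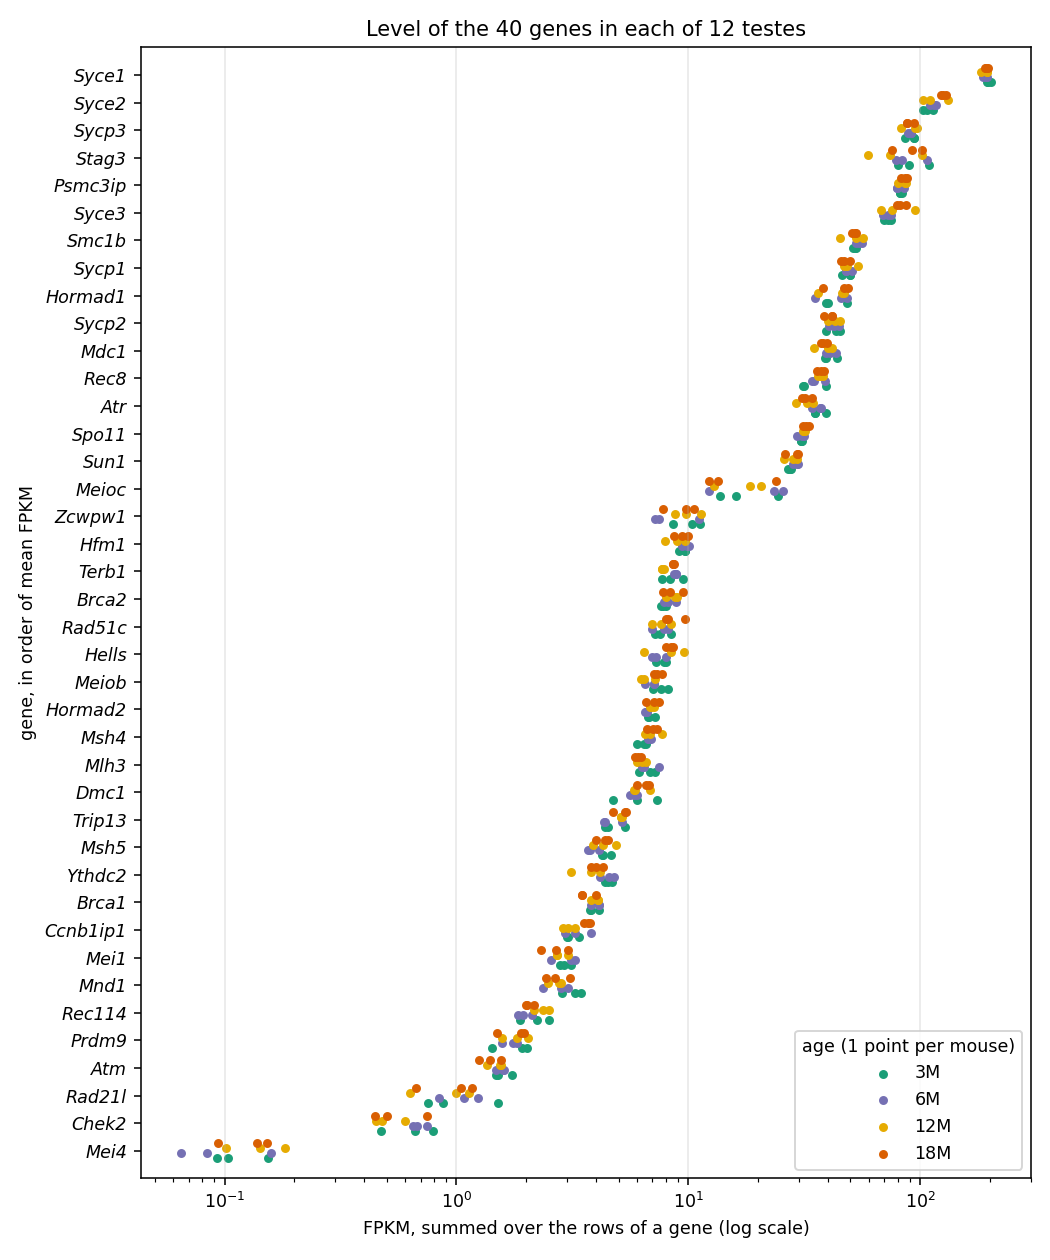
Level of each of the 40 genes in each of the 12 mice, as FPKM on a log axis, in order of mean level and with ages in separate colours. Syce1 is highest at 193 FPKM and Mei4 lowest at 0.122. Counted by CPM, which is not plotted here, the 3M and 18M mice overlap in 35 of the 40 genes. By the FPKM plotted, those of Spo11, Msh4 and Hells are apart although they overlap by CPM.

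The choice of genes had not used their promoter sequences. RefSeq promoter sequences (GRCm38.p6, 250 bases before to 50 after the start, 300 in all) were at hand for 37 of the 40 genes, and 5 motifs were looked up on both strands. GCGGGAA, letters bound by E2F6, a repressor of germ-cell genes in somatic cells, stood in 15 of 37 promoters (40.5%), beside 5.29% of all 27025 promoters of that length and 8.28% of the 13983 belonging to genes tested here. The E-box CACGTG, which MYC, MAX and MGA bind, was in 6 (16.2%, against 8.09% of all and 10.4% of tested genes). CCAAT, bound by NF-Y, was in 18 (48.6%, against 41.1% and 42.0%), CAACTG or TAACTG, bound by MYB proteins, in 7 (18.9%, against 24.5% and 21.4%), and TGACGTC, letters of the site of CREB and CREM, in 2 (5.41%, against 3.60% and 5.30%). Both the E-box and GCGGGAA were in 5 promoters, those of Syce2, Sycp3, Hormad1, Stag3 and Rec114, beside 0.611% of all promoters. The remaining 10 with GCGGGAA belonged to Smc1b, Prdm9, Hells, Rad51c, Brca2, Msh5, Atm, Chek2, Mdc1 and Meioc. None of the motifs was in 11 of the 37. A match of letters describes the sequence and does not show that a factor binds there. The 3 most abundant genes with both motifs are shown on the plus strand of the build, all of them plus-strand genes, with the motifs in capitals. In the Stag3 promoter the second motif reads TTCCCGC, the reverse complement of GCGGGAA.
Syce2 promoter, chr8:84872008-84872307: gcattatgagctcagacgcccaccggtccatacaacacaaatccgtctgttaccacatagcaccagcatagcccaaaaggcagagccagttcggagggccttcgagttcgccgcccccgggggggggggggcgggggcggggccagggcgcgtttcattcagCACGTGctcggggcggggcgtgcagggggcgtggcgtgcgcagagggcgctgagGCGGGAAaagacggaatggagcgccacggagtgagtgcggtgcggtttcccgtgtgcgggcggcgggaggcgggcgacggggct
Sycp3 promoter, chr10:88459337-88459636: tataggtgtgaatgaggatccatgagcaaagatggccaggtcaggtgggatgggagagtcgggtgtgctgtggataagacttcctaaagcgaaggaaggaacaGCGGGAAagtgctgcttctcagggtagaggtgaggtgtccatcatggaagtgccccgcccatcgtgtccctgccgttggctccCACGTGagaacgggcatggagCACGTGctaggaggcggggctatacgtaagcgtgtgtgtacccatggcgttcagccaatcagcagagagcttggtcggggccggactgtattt
Stag3 promoter, chr5:138280259-138280558: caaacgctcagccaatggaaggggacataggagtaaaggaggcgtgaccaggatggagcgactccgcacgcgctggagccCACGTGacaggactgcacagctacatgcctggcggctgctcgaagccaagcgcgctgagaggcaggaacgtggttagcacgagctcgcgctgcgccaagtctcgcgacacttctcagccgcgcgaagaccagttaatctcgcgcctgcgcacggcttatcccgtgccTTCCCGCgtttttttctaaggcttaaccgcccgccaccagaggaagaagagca

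Among the genes of the rungs, Syce2 and Syce3 were higher in every 18M mouse than in any 3M mouse, while Sycp1 and Syce1 were level. The 4 encode SYCP1, the rod that spans the complex, and the central element proteins SYCE1, SYCE2 and SYCE3 that join the rods in the middle. Syce2 (chr8:84872111-84887446, plus strand of mm10, 4 rows) was at 112, 100.4 and 106 CPM in the 3M mice, 109, 112 and 112 at 6M, 109, 103 and 126 at 12M, and then 121, 123 and 127 in the 18M mice. Its means were higher at each age than at the one before, and the 12M mouse 3 lay among the 18M mice. The 18M level was 1.16 times that of 3M (log2 fold change 0.22, SE 0.053, 95% interval 0.093 to 0.35), with an unadjusted p of 0.0048 and an adjusted p of 0.35 by edgeR. The slope of Syce2 was 0.013 log2 per month (SE 0.0042; unadjusted p = 0.0076, adjusted p = 0.19), the smallest p of the 40 members. Syce3 (chr15:89390174-89410503, minus strand, 2 rows) was at 36.5, 34.0 and 35.3 CPM in the 3M mice, 33.8, 35.1 and 35.5 at 6M, 37.0, 33.5 and 45.0 at 12M, and then 38.4, 39.8 and 42.5 in the 18M mice. The 3M and 6M mice were alike, and the highest mouse of all was the third of 12M. Its 18M to 3M fold was 1.14 (log2 fold change 0.19, SE 0.060, 95% interval 0.049 to 0.34; unadjusted p = 0.016, adjusted p = 0.36). Syce1 (chr7:140777229-140787854, minus strand, a single annotated row of 13 exons), the most abundant of all 40 genes, was at 314, 307 and 304 CPM in the 3M mice, 301, 302 and 284 at 6M, 304, 309 and 282 at 12M, and then 296, 307 and 302 in the 18M mice. The ages of Syce1 overlapped throughout, and its fold was 0.981 (adjusted p = 0.78). Sycp1 stood at 48.6 ± 2.22 FPKM at 3M and 47.4 ± 2.27 at 18M (SD, n = 3).

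Of the 4 axis genes, none had an unadjusted p of 0.05 or less between 3M and 18M. SYCP3 and its partner SYCP2 form the rails along each chromosome, and HORMAD1 and HORMAD2 mark stretches that have not yet paired. Sycp3 (chr10:88459587-88473236, plus strand, 1 annotated row of 9 exons) was at 112, 113 and 104 CPM in the 3M mice, 109.7, 109.5 and 104 at 6M, 115, 101 and 114 at 12M, and then 105, 106 and 114 in the 18M mice. All ages overlapped, with a fold of 0.987 (log2 fold change -0.018, SE 0.054, 95% interval -0.15 to 0.11; adjusted p = 0.91). From 3M to 18M, Sycp2 went from 42.7 ± 2.95 to 40.6 ± 1.73 FPKM. Hormad1 stood at 42.6 ± 5.2 and 44.7 ± 5.80 FPKM, and Hormad2, far lower, at 6.90 ± 0.259 and 7.04 ± 0.460. Their fitted log2 fold changes ran from -0.024 (Sycp2) to 0.061 (Hormad2).

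Of the meiotic cohesin subunits, Stag3 had the highest level, and its fitted fold change between 3M and 18M was the one of the 4 with an unadjusted p of 0.05 or less. Cohesin holds sister chromatids together and carries the axis; SMC1B, REC8, RAD21L and STAG3 are the subunits that replace the mitotic ones in meiosis. Stag3 (chr5:138279021-138326879, plus strand, 3 rows, the main one of 34 exons) was at 468, 519 and 498 CPM in the 3M mice, 512, 499 and 448 at 6M, 470.2, 488 and 353 at 12M, and then 479, 438 and 416 in the 18M mice. The third 12M mouse was the lowest of all, and 3M and 18M overlapped at 1 pair of mice. The 18M to 3M fold was 0.898 (log2 fold change -0.16, SE 0.065, 95% interval -0.31 to -0.0010), with an unadjusted p of 0.049 and an adjusted p of 0.41. All 3 rows of Stag3 overlap Gpc2 on the other strand, so that reads of both could be counted together, although Gpc2 itself was low at 3.64 FPKM. The main row, NM_016964 with 79.7% of the reads, overlaps it by only 3 bases. The assembled rows, with 19.0% and 1.39% of the reads, overlap it by 1491 and 474 bases. Counted from annotated rows alone, the log2 fold change of Stag3 was 0.00057. Rec8 had higher means at each step, from 34.1 ± 4.53 FPKM at 3M to 37.3 ± 1.36 at 18M, but 1 of the 3M mice, at 86.7 CPM, was above every 18M mouse (79.1 to 84.9). Smc1b stood at 52.2 ± 0.737 and 52.0 ± 1.06 FPKM. Rad21l, at 1.05 ± 0.405 and 0.962 ± 0.259 FPKM, varied by 29.1% between mice of an age.

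The genes of break formation held the steadiest member of the set, Spo11, and the scarcest, Mei4. SPO11 makes the break, MEI1, MEI4 and REC114 are needed for it, PRDM9 places it by methylating histone H3, ZCWPW1 reads that methylation, and HELLS is a chromatin remodeller that works with PRDM9. Spo11 (chr2:172979842-172993576, plus strand, 7 rows) was at 65.8, 67.4 and 66.9 CPM in the 3M mice, 64.4, 63.2 and 65.1 at 6M, 68.4, 69.5 and 69.0 at 12M, and then 66.6, 69.8 and 71.4 in the 18M mice. Its 12 mice lay within 63.2 to 71.4 CPM, the 3M and 18M mice overlapped, and the fold was 1.04 (log2 fold change 0.054, SE 0.045, 95% interval -0.053 to 0.16; adjusted p = 0.65). Mei4 (chr9:81863744-82027491, plus strand) was read 279 times in all 12 libraries together, at 0.305, 0.352 and 0.504 CPM in the 3M mice, 0.296, 0.535 and 0.210 at 6M, 0.475, 0.355 and 0.598 at 12M, and then 0.512, 0.456 and 0.307 in the 18M mice. The lowest library held 12 of its reads. Its fold of 1.09 had a 95% interval from 0.630 to 1.88, and its slope, the largest positive one of the set, had an adjusted p of 0.75. Between 3M and 18M, Prdm9 stood at 1.79 ± 0.314 and 1.78 ± 0.249 FPKM, Zcwpw1 at 10.1 ± 1.37 and 9.36 ± 1.43, and Hells at 7.71 ± 0.379 and 8.33 ± 0.287. By read counts the fitted log2 fold change of Hells was -0.096, the other way from its summed FPKM, which also depends on the lengths of its rows. Rec114 was at 2.20 ± 0.315 and 2.06 ± 0.0856 FPKM. The mean CPM of Mei1 was lower at each age than at the one before, with overlapping mice (adjusted p = 0.75). In FPKM Mei1 was at 2.95 ± 0.166 at 3M and 2.68 ± 0.351 at 18M, but its 6M mean was not below that of 3M.

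Spo11 is made in a pair of well-known splice forms, a longer one with exon 2 (SPO11-beta) and a shorter one without it (SPO11-alpha). Rows with and without this exon could be counted. This exon was looked at after its values had been seen. It is exon 2 of 13 in NM_012046, the only one of the 7 Spo11 rows that holds it, and lies within the coding sequence at chr2:172981979-172982092, 114 bases or 38 codons, so that its loss keeps the reading frame. It is shown with the exon in capitals between 10 bases of its neighbours in the GENCODE transcript of the same build, in lower case.
Spo11 exon 2: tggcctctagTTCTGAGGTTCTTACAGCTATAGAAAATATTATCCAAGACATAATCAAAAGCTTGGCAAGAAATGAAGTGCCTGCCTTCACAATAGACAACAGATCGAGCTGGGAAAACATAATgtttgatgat
The row with the exon took 13.8% ± 2.93 of the FPKM of Spo11 in the 3M mice, 11.9% ± 1.66 at 6M, 11% ± 0.694 at 12M, and then 15.2% ± 4.53 in the 18M mice (SD, n = 3). Single mice ran from 10.1% to 20.4%, and the highest was the second 18M mouse. The 6 rows without the exon were together at 26.5 ± 0.860 FPKM at 3M and 27.3 ± 1.68 at 18M, so most of the FPKM lay in rows without it at every age. Among them NM_001083960, compared with NM_012046, lacked this exon and took 14.5% to 25.1% of the Spo11 reads of a mouse. Whether each of the 6 rows is SPO11-alpha was not tested.

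Strand exchange was carried by 1 abundant gene and several scarce ones. PSMC3IP and MND1 form a pair that helps DMC1, the meiotic recombinase, to invade the homologue, MEIOB coats single-stranded DNA, RAD51C is a strand-exchange protein, and BRCA1 and BRCA2 are repair proteins. Psmc3ip (chr11:101092141-101095435, minus strand, 3 rows) was at 84.3, 83.9 and 86.0 CPM in the 3M mice, 81.8, 82.1 and 85.7 at 6M, 88.5, 90.5 and 80.6 at 12M, and then 84.6, 88.6 and 90.3 in the 18M mice. The ages overlapped, and the fold was 1.04 (log2 fold change 0.053, SE 0.043, 95% interval -0.050 to 0.16; adjusted p = 0.64). Its partner Mnd1 was far lower, at 3.18 ± 0.304 FPKM at 3M and 2.74 ± 0.333 at 18M (adjusted p = 0.55), and a row on its other strand held reads amounting to 50.3% of those of Mnd1. Dmc1 stood at 6.02 ± 1.3 and 6.47 ± 0.413 FPKM, Rad51c at 7.72 ± 0.637 and 8.60 ± 0.935, and Meiob at 7.62 ± 0.587 and 7.39 ± 0.313. For Rad51c the 18M mean was raised by the first 18M mouse at 26.8 CPM, beside 20.8 and 21.3 in the other 18M mice. Brca1 was at 3.89 ± 0.190 and 3.65 ± 0.307 FPKM and Brca2 at 7.81 ± 0.206 and 8.50 ± 0.863. By read counts the fitted log2 fold change of Brca2 was -0.030, the other way from its summed FPKM, which also depends on the lengths of its rows. The fitted log2 fold changes of the 7 genes ran from -0.21 (Mnd1) to 0.19 (Rad51c), with 3 higher and 4 lower at 18M.

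Among the crossover genes, Ccnb1ip1 had the largest 18M to 3M fold of the 40. Its product HEI10 is a ubiquitin ligase that gathers at the few sites which become crossovers, and MSH4 with MSH5, MLH3 and the helicase HFM1 act at the same joints. Ccnb1ip1 (chr14:50789249-50795728, minus strand, 1 row of 4 exons) was at 4.86, 5.42 and 4.85 CPM in the 3M mice, 4.77, 5.25 and 6.00 at 6M, 5.26, 4.73 and 4.80 at 12M, and then 6.07, 5.75 and 6.00 in the 18M mice. All 18M mice lay above all 3M mice, but 1 of the 6M mice was as high as they were and the 12M mice were as low as those of 3M. The fold was 1.18 (log2 fold change 0.24, SE 0.093, 95% interval 0.015 to 0.46; unadjusted p = 0.040, adjusted p = 0.40). From 12M to 18M its log2 fold change was 0.27 (unadjusted p = 0.025, adjusted p = 0.999). Hfm1 (chr5:106840197-106927195, minus strand, 7 rows) was at 55.3, 58.2 and 55.7 CPM in the 3M mice, 58.9, 57.5 and 53.7 at 6M, 59.6, 52.8 and 45.5 at 12M, and then 58.7, 53.3 and 50.2 in the 18M mice. The third 12M mouse was its lowest, the other ages overlapped, and the fold was 0.959 (adjusted p = 0.75). The mean CPM of Msh4 was higher at each step (3M to 18M adjusted p = 0.47). In FPKM Msh4 was at 6.34 ± 0.297 at 3M and 6.99 ± 0.351 at 18M, but its 18M mean was not above that of 12M. Its partner Msh5 stood at 4.40 ± 0.209 and 4.30 ± 0.262 FPKM at 3M and 18M. Mlh3 had a slope of -0.011 log2 per month (SE 0.0047; unadjusted p = 0.041, adjusted p = 0.31), with 6.71 ± 0.532 FPKM at 3M and 6.07 ± 0.194 at 18M. Over the whole set, mean CPM was higher at every step in 3 members (7.5%: Syce2, Rec8 and Msh4), beside 5.92% of the genes tested. It was lower at every step in 2 (5.0%: Mei1 and Atm), beside 8.39%.

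Of the kinases and their partners, Atr was lower in every 18M mouse than in any 3M mouse. ATR and ATM are the kinases that answer to unpaired chromosomes and to DNA breaks, CHEK2 relays the signal, MDC1 spreads it over the chromatin of the X and Y, and TRIP13 strips HORMAD proteins from paired axes. Atr (chr9:95857593-95951666, plus strand, 2 rows, one of 47 exons with nearly all reads) was at 304, 337 and 305 CPM in the 3M mice, 322, 319.8 and 288 at 6M, 283, 303 and 247 at 12M, and then 294, 275 and 268 in the 18M mice. The 6M mice were like those of 3M except for the third, and the third 12M mouse was the lowest of the 12. Its 18M to 3M fold was 0.885 (log2 fold change -0.18, SE 0.058, 95% interval -0.32 to -0.038), with an unadjusted p of 0.020 and an adjusted p of 0.37, and the slope was -0.013 log2 per month (SE 0.0047; adjusted p = 0.23). Mdc1 (chr17:35841059-35859670, plus strand, 7 rows) was at 304, 339.9 and 309 CPM in the 3M mice, 341, 325 and 305 at 6M, 321, 333 and 272 at 12M, and then 309, 298 and 303 in the 18M mice. The 3M and 18M mice overlapped, and the fold was 0.956 (adjusted p = 0.63). Chek2 (chr5:110840017-110874133, plus strand), read 60 times or more in each library, was at 1.14, 1.92 and 1.60 CPM in the 3M mice, 1.64, 1.56 and 1.75 at 6M, 1.10, 1.18 and 1.42 at 12M, and then 1.2, 1.80 and 1.07 in the 18M mice. Its mice overlapped across 3M and 18M (fold 0.872, adjusted p = 0.80), and from 6M to 12M its log2 fold change was -0.42 (unadjusted p = 0.033, adjusted p = 0.66). Atm stood at 1.57 ± 0.138 and 1.40 ± 0.153 FPKM at 3M and 18M, and Trip13 at 4.72 ± 0.521 and 5.16 ± 0.351.

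Terb1 and Sun1 tie the chromosome ends to the nuclear envelope, TERB1 on the telomere and SUN1 in the inner membrane. Sun1 (chr5:139199706-139249839, plus strand, 22 rows) was at 124, 122 and 126 CPM in the 3M mice, 132, 127 and 126 at 6M, 127, 126 and 117 at 12M, and then 130.0, 127 and 117 in the 18M mice. Its ages overlapped (fold 1.01, adjusted p = 0.96). Terb1 was at 8.53 ± 0.918, 8.80 ± 0.0909, 7.75 ± 0.0615 and 8.61 ± 0.0292 FPKM at the 4 ages, with the lowest mean at 12M (6M to 12M log2 fold change -0.16, unadjusted p = 0.042, adjusted p = 0.66).

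Meioc and Ythdc2 act together, binding RNA so that germ cells leave the mitotic programme and go on with meiosis. Ythdc2 (chr18:44828665-44889720, plus strand, 1 row of 30 exons) was at 29.4, 31.4 and 30.6 CPM in the 3M mice, 32.2, 30.5 and 27.5 at 6M, 25.9, 28.3 and 20.6 at 12M, and then 28.8, 26.9 and 25.7 in the 18M mice. All 18M mice were below all 3M mice, and the lowest mouse was again the third of 12M. The fold was 0.891 (log2 fold change -0.17, SE 0.063, 95% interval -0.32 to -0.015; unadjusted p = 0.036, adjusted p = 0.39). Meioc (chr11:102664778-102692586, plus strand, 6 rows) was at 134, 59 and 89.0 CPM in the 3M mice, 143, 130.0 and 55.1 at 6M, 55.3, 101 and 111 at 12M, and then 56.3, 114 and 54.2 in the 18M mice. Its mice fell into a set of 5 at 54.2 to 59 CPM and a set of 7 at 88.9 to 143 CPM, and both sets held mice of every age. The row MSTRG.3690.1, an assembled form, took 60.1% of the Meioc reads overall and from 17.3% to 87.1% of those of a mouse. It held over 76% in 6 of the 7 mice of the higher set and 21.9% to 36.3% in the lower set, while in the seventh, the second 18M mouse, the row MSTRG.3690.4 held 45.1%. The spread of Meioc thus went with which row the assembler gave the reads to, and its fold of 0.796 (adjusted p = 0.76) had a 95% interval from 0.421 to 1.51. From annotated rows alone its log2 fold change was 0.50, and without the first 3M mouse it was 0.018.

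**Figure D3:**
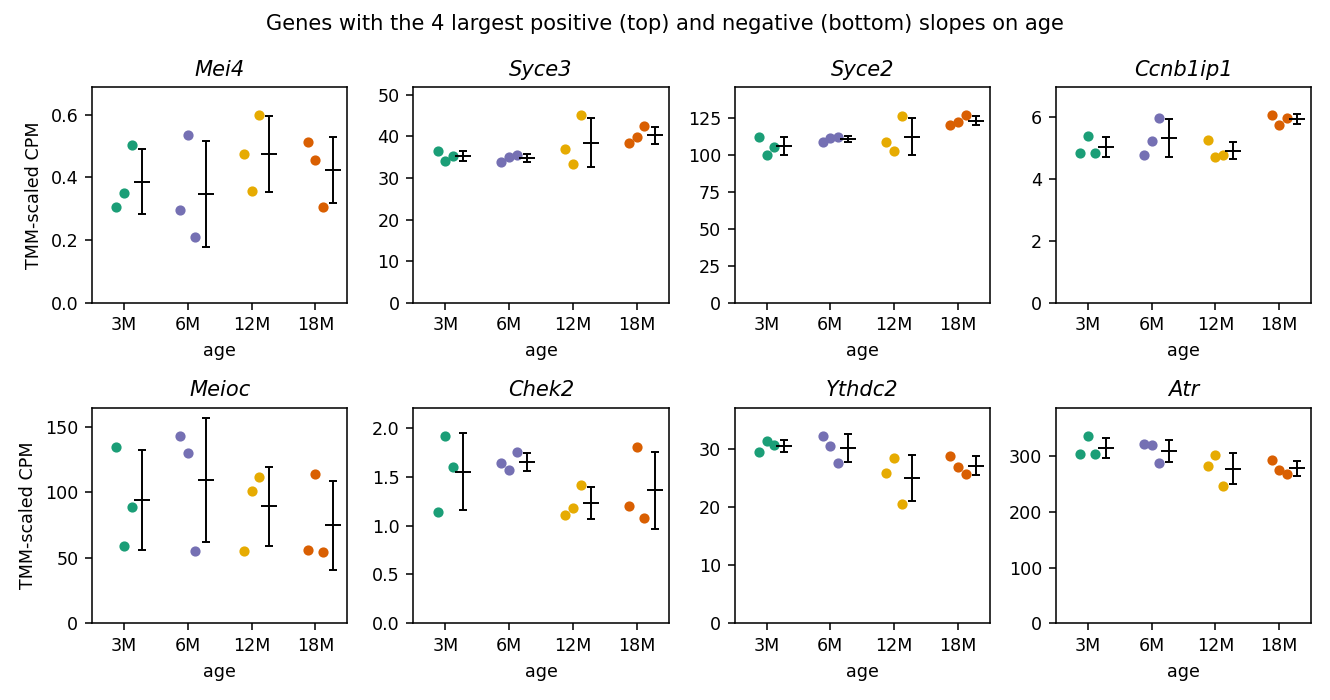
CPM in each mouse (points, with the mean and SD of each age beside them) for the 4 members with the largest positive and the 4 with the largest negative slope on age. Syce2 runs from 100.4 to 127 CPM and Atr from 247 to 337, and the mice of an age lie far apart for Meioc.

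Across all 40 members, 5 (12.5%) had 3M and 18M mice that did not overlap by CPM, beside 19.6% of all features. Syce2, Syce3 and Ccnb1ip1 were higher at 18M, and Atr and Ythdc2 lower. With 3 mice against 3, an exact permutation test of a single gene cannot go below p = 0.10. These 5 genes and Stag3 were also the 6 with an unadjusted p of 0.05 or less between 3M and 18M.

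The direction of a member went with the length of its transcripts, which the choice of genes had not used and which was looked at after the values had been seen. Of the 20 members longer than the members' median of 3103 bases, 17 were lower and 3 higher at 18M, and of the 20 shorter ones 12 were higher and 8 lower. Across the 40 genes, log2 length and log2 fold change had a Pearson r of -0.45 and a Spearman rho of -0.45, and the same sign was seen over the 15587 genes with at least 0.5 CPM in each mouse (r = -0.25, rho = -0.36). Genes share their libraries and are not independent replicates, so these values describe the libraries. Over those genes, the median log2 fold change was 0.080 in the quintile of the shortest transcripts and -0.092 in that of the longest. Within single libraries, the longest quintile minus the shortest, as the median log2 deviation from each gene's mean, was 0.00086, 0.15 and 0.048 in the 3M mice, 0.12, 0.089 and 0.039 at 6M, 0.014, 0.096 and -0.24 at 12M, and -0.043, -0.097 and -0.18 in the 18M mice. All 18M mice were below all 3M and 6M mice in this measure, and the lowest was the third 12M mouse, the one that had stood apart for Syce3, Stag3, Hfm1, Atr and Ythdc2.

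When the median deviation of genes of like length was taken out of each library (50 length bins, an alternative added after seeing the data), 23 members were higher and 17 lower at 18M, and r over the members was 0.060. These offsets are built to take out a length trend over all genes. A smaller r among the members follows from this and is no separate result. The log2 fold change of Syce2 was then 0.13 in place of 0.22, that of Syce3 0.075 in place of 0.19, that of Ccnb1ip1 0.19 in place of 0.24, that of Atr -0.065 in place of -0.18, that of Stag3 -0.045 in place of -0.16, and that of Ythdc2 -0.095 in place of -0.17. Each of these 6 kept its sign at a smaller size. That of Mnd1 was -0.31 in place of -0.21. Of the 40 members 10 changed sign, 9 of them from lower to higher (Sycp1, Sycp2, Smc1b, Zcwpw1, Brca1, Brca2, Hfm1, Mdc1 and Terb1, now at 0.0028 to 0.089) and 1 from higher to lower (Psmc3ip, -0.020). The number of members called was 0 in all 6 gene tests, as before. At an unadjusted p of 0.05 or less there were fewer members between 3M and 18M, 1 in place of 6 (beside 10.2% of features with the same offsets), but more in other tests. They were 7 in place of 4 on the slope (13.1%), 4 in place of 0 for any difference (9.15%), 2 in place of 1 between 12M and 18M (4.03%), and as before 2 between 6M and 12M (8.05%) and 0 between 3M and 6M (3.98%). RNA integrity values were not used here, and whether the state of the RNA, the library preparation or the testis itself moved with length was not tested.

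**Figure D4:**
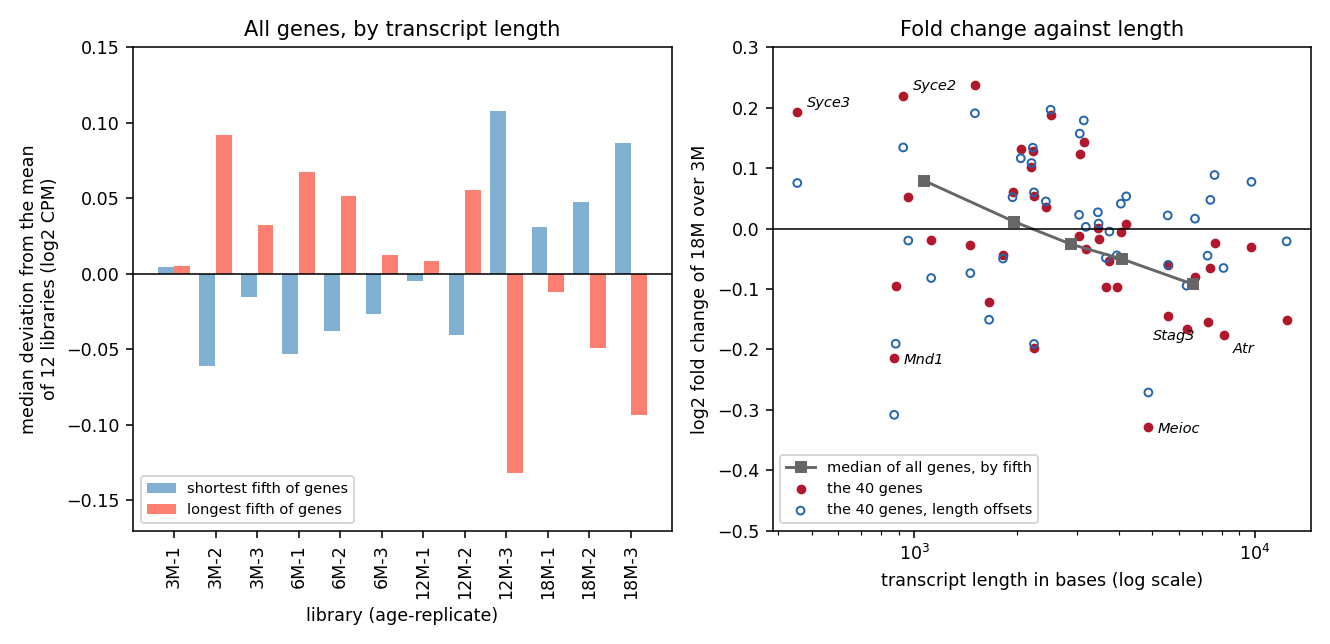
Log2 fold change from 3M to 18M against transcript length (log axis) for the 40 members as deposited and with length offsets, and the median deviation of the shortest and of the longest quintile of genes in each library (bars, log2 CPM). The trend over the members has r = -0.45, and r = 0.060 with offsets that are built to take out such a trend over all genes. The difference of the longest less the shortest quintile is lowest in the third 12M mouse, at -0.24.

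The table is per transcript, and most of the members had several rows. Of the 141 rows, 65 were annotated and 76 assembled with at least 1 junction shared with the annotation, and the assembled rows held 48.0% of the members' reads. A single row was found for 12 members, and 13 had an assembled row as their largest. By row, 0 of 131 member rows tested were called on the slope (0.0103% of all rows) and 0 of 125 between 3M and 18M (0.108%) by edgeR. At an unadjusted p of 0.05 or less there were 5 rows on the slope (7.15% of all rows) and 6 between 3M and 18M (5.40%). DESeq2 called 3 of the 125 rows between 3M and 18M, where it called 3.16% of all 54472 rows, so that the count does not set the members' rows apart. They were the annotated NM_027954 of Syce2 (log2 fold change 0.23, SE 0.068, adjusted p = 0.025), the assembled MSTRG.12501.4 of Sycp2 (-0.94, SE 0.25, adjusted p = 0.010), which took 7.80% ± 1.65 of the Sycp2 reads at 3M and 4.18% ± 0.53 at 18M, and MSTRG.10574.4 of Hells. The last is an assembled row that runs on into Tbc1d12, the next gene on the same strand. It held 1126, 1078 and 473 reads in the 3M mice and 0 in each 18M mouse. A count of 0 allows up to 3 reads. The row was also at 0 in the first 6M mouse and the first 12M mouse, and held 558 to 659 reads in the other mice of those ages. In the same mice the annotated row NM_008234 of Hells held 37.3% ± 21.0 of the reads at 3M and 63.8% ± 25.5 at 18M, and the 18M to 3M fold of the gene as a whole was 0.935 (adjusted p = 0.54).

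Of the members, 12 had 2 or more rows with at least 20% of their reads each, and the genes differed in how far these shares ranged over the 12 mice. The range was narrowest in Hormad2, where the assembled MSTRG.2444.1 held 63.0% to 74.5% of the reads of a mouse, Psmc3ip (MSTRG.3632.3, 46.2% to 59.7%) and Msh4 (NM_031870, 58.0% to 73.6%). The shares of Rad51c (MSTRG.3390.3, 41% to 70.9%), Trip13 (NM_027182, 45.2% to 78.7%), Mlh3 (NM_175337, 48.3% to 95.1%), Hfm1 (MSTRG.15828.4, 4.90% to 59.3%) and Mdc1 (MSTRG.9011.1, 2.38% to 53.6%) were wider. Widest were Mei1, whose rows NM_028897 and NM_001310435 start at different places and traded from 5.80% to 99.8% of the reads, Zcwpw1 (NM_001005426, 0.0451% to 84.9%), Meiob (MSTRG.8695.4, 0.260% to 64.1%) and Hells. Such jumps were found between mice of the same age. The summed reads of Mei1 and Zcwpw1 did not show them: mice of an age differed by 9.1% (coefficient of variation of CPM) for Mei1 and 4.8% for Zcwpw1. Summed FPKM, which also depends on the lengths of the rows, did vary for Zcwpw1, at 7.22, 7.46 and 11.2 in the 6M mice. The summed reads of Meioc moved with its rows too, as given above.

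A cassette exon set the 2 rows of Trip13 apart. The assembled MSTRG.5503.1, with 42.8% of the Trip13 reads, lacks exon 8 of 13 of NM_027182, 87 coding bases or 29 codons at chr13:73920348-73920434. It is shown from the minus strand, on which Trip13 lies, with the exon in capitals between 10 bases of its neighbours.
Trip13 exon 8: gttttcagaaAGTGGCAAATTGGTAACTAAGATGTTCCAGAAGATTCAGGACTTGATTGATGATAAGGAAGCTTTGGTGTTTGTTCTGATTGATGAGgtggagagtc
Rows lacking the exon held 41.1% ± 8.34 of the Trip13 reads in the 3M mice, 40.2% ± 16.4 at 6M, 48.4% ± 3.58 at 12M, and then 41.7% ± 12.5 in the 18M mice (SD, n = 3). In Dmc1, annotated rows without exons 8 and 9, 165 bases together, held 4.53% to 8.09% of the FPKM on average at the 4 ages. Single mice ran from 0% to 19.0%, both of them 3M mice, so that the 3M mean of 6.38% ± 10.9 rested on the first of its mice. These shares are the assembler's estimates, and no read of a junction was counted here.

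**Figure D5:**
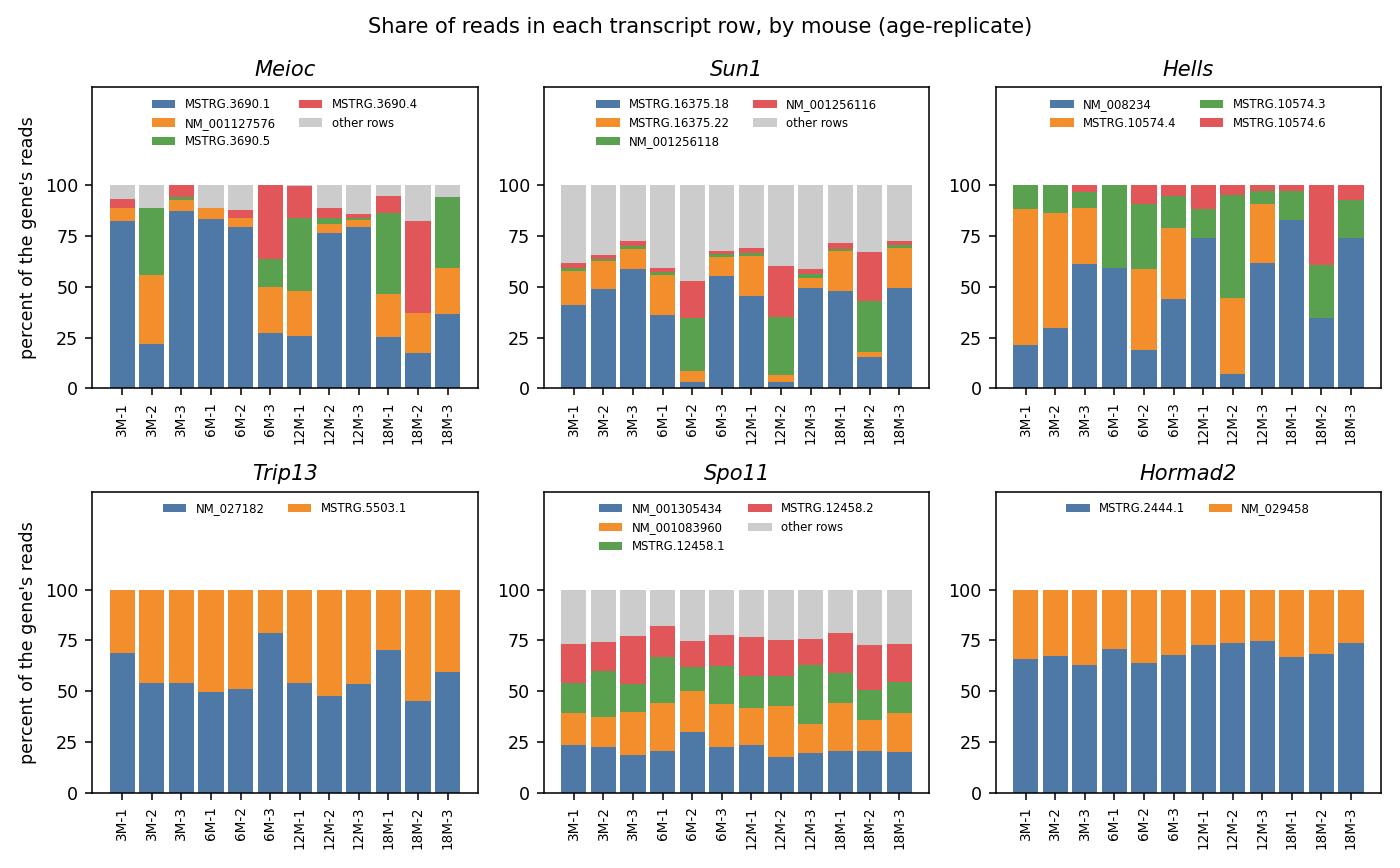
Share of a gene's reads in its main rows, in percent, in each of the 12 mice, for 6 members with several rows (bars stacked by row, with further rows in grey). MSTRG.2444.1 of Hormad2 runs from 63.0% to 74.5%, while NM_008234 of Hells runs from 7.07% to 82.9%.

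For some members the reads cannot be given to 1 gene with certainty. On the same strand, assembled rows ran on into the next gene for Hormad1 (3 rows with 31.8% of its reads, into Golph3l), Hells (2 rows, 44.6%, into Tbc1d12) and Msh5 (1 row, 64.9%, into Sapcd1). On the other strand, exons overlapped those of another gene for Stag3, Zcwpw1, Atr, Atm, Brca1, Sycp3, Rec114, Psmc3ip, Meioc and Msh5. In the row with the longest overlap of each pair of genes, it was 23 to 1491 bases. The libraries do not mark strand, so reads from such stretches cannot be told apart. The overlapping genes with high levels were Nbr1 beside Brca1 (176 FPKM, 100 shared bases) and Chpt1 beside Sycp3 (58.4 FPKM, 80 shared bases). Against the member's own level, Mepce (38.3 FPKM, 121 shared bases) stood above Zcwpw1, and Nptn (15.6 FPKM, 60 shared bases) above Rec114, whose only row it overlaps. Npat (4.03 FPKM, 188 shared bases) stood above Atm, where it overlaps a row with 92.3% of the Atm reads.

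None of the 40 genes lies on the X or Y chromosome, which pair only in part and are silenced in these cells, beside 860 of 18545 genes tested (4.64%). The genes are spread over 15 chromosomes, and 6 lie on chromosome 5.

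Another list held 48 genes that work in the same steps, such as Tex11 and Topbp1. Of them 46 were in the table, and 0 were called on the slope or between 3M and 18M by edgeR. At an unadjusted p of 0.05 or less, 2 were higher with age on the slope and 4 lower (6 of 46, beside 15.2% of features), and 1 was lower at 18M than at 3M (1 of 46, beside 12.0% of features and 6 of the 40 members). Those higher were Mus81 (0.0063 log2 per month), a nuclease that resolves joints, and Xrcc3 (0.014), a strand-exchange protein. Among those lower were Rad50 (-0.0099), which trims breaks with MRE11, Mybl1 (-0.012), a transcription factor of pachytene spermatocytes, and Fancd2 (-0.0089), a repair protein. The median log2 fold change of the 46 was -0.029, beside -0.026 for the members. Their summed level was 649.9 ± 13.5 FPKM at 3M and 645 ± 10.5 at 18M.

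Markers of the cells around and after the spermatocytes were added up from lists of the same kind. The 8 markers of pachytene spermatocytes, among them Piwil1 and Hspa2, stood at 3409.8 ± 57.6 FPKM at 3M and 3415 ± 96.4 at 18M, and the 9 of spermatogonia at 87.2 ± 1.70 and 86.1 ± 4.92. The 7 of round spermatids were at 716 ± 21.1 and 825 ± 4.45, with 5 higher on the slope at an unadjusted p of 0.05 or less and 0 called. Those of Leydig cells were at 1082 ± 78.8 and 811 ± 139, with 6 of 7 lower at the same p and 2 called on the slope. The 8 Sertoli markers were at 461 ± 16.1 and 463 ± 8.61. The 7 of elongating spermatids were at 27127 ± 1440 and 29501 ± 2537, with slopes above 0 for 7 of 7 and 2 of them at that p. The 4 of peritubular myoid cells were at 23.7 ± 1.82 and 21.9 ± 2.54, with slopes below 0 for 4 of 4 and none at that p. The 5 of macrophages were at 17.4 ± 1.36 and 16.3 ± 4.95, with slopes below 0 for 5 of 5 and 1 at that p. The lowest summed levels were those of endothelial cells, 4.46 ± 0.394 and 3.84 ± 0.268 with slopes below 0 for 3 of 3 and 2 at that p, and of lymphocytes, 0.915 to 1.70 in single mice with 0 at that p. In these 5 lists 0 were called, and no marker in any list was at 0 in every mouse. The testis label of the samples was thus met by its germ-cell and Sertoli markers in all mice. Whether these shifts had a part in the members' values was not tested.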

How the data were processed

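Total RNA of 12 testes was sequenced on an Illumina HiSeq in pairs, with ribosomal RNA removed and libraries that do not mark strand. The authors aligned the reads to mm10 with HISAT2, assembled transcripts with StringTie and compared them with the annotation, and they deposited, per transcript and library, FPKM and an estimated count of reads. The deposited estimated counts are whole numbers derived from coverage. The score column of the assembly files the authors deposited is a constant StringTie fills in, and only their exon structures were used. Here, counts and FPKM of rows with class code =, c, j or o were summed per gene symbol, and other rows per locus. All features were tested together with edgeR 4.0.16 (R 4.3.3; TMM, filterByExpr, quasi-likelihood F-test), and Benjamini-Hochberg p-values covered all of them. CPM used TMM-scaled library sizes. Transcript rows were tested in the same way. The scripts were tested on simulated counts with known changes. Between 3M and 18M the gene test recovered 0% of 1.5-fold, 49.5% of 2-fold and 94% of 4-fold changes, and the row test 0% of 4-fold changes. On the slope the gene test recovered 38.5% of 1.5-fold and 76.5% of 2-fold changes. Folds as small as those fitted for the members, 0.796 to 1.18, were not simulated, and 0 called does not show that such changes are absent. Libraries held 50924104 to 71803379 reads, with TMM factors of 0.983 to 1.02, and the lowest member had 12 reads in its lowest library. Counting limits cover counting error only. Alternatives included DESeq2 1.42.0, limma 3.58.1 on log2(FPKM + 1), other filters and scalings, annotated rows alone, a replicate block and leaving out each library. The members, role groups, the list of other meiotic genes, the markers and the motifs were chosen with earlier results of these data known. Named in every mouse were members called, the 4 largest slopes in each direction, and the highest member of each of 9 role groups. Other members were named with their means. Some genes of the list of other meiotic genes are counted but not reported here by name. Motifs were searched in RefSeq promoters (GRCm38.p6), and exon sequences came from GENCODE transcripts. Columns of per-sample values left unused numbered 0.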

Additional observations from a re-analysis of the deposited data

Results flagged for a closer look

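Rnf212, whose product RNF212 marks sites that will become crossovers, had no row under its symbol, but reads lay at its place. The rows MSTRG.15867.1 and MSTRG.15867.2, which the table gives as lying opposite 1700047L14Rik on chromosome 5, use splice junctions of the GENCODE Rnf212 transcripts (11 of 11 and 10 of 11 introns). Together they held at least 217 reads in each library, above the 3 that a count of 0 allows, and 3.46 ± 0.52, 3.48 ± 0.33, 4.0 ± 0.26 and 3.40 ± 0.61 FPKM at 3M, 6M, 12M and 18M (SD, n = 3). They were left out of the member counts, since the rule goes by symbol.

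Rows antisense to members or within their introns were read too, although the comparisons did not use them, and the 7 named here had reads in every library. Opposite Mnd1, MSTRG.12962.1 had 908 reads in the 12 libraries, 50.3% of the number for Mnd1 itself. Opposite Brca2, MSTRG.16540.1 had 2345 reads and MSTRG.16540.3 had 222. Opposite Sycp2, MSTRG.12502.1 had 421 and MSTRG.12502.2 had 497. Opposite Hfm1, MSTRG.15829.1 had 150 reads. Within an intron of Sun1, MSTRG.16376.1 had 2429 reads. MSTRG.16540.2, opposite Brca2, and MSTRG.13621.1, within an intron of Msh4, were at 0 in some libraries, with 86 and 213 reads in all. The strand of such rows comes from the assembler, as the libraries do not mark it.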

How the results depend on the processing

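Under each of 127 alternatives by gene, which leave out an unadjusted p alone, 0 members were called. For each comparison of 2 ages they include the study's thresholds, an unadjusted p of 0.05 or less and at least 2-fold. They also include the main call with at least 2-fold added, which could only give 0 as the main count was 0. At an unadjusted p of 0.05 or less, 4 members passed on the slope (beside 15.2% of all features) and 6 between 3M and 18M (12.0%). Between 6M and 12M 2 passed (7.54%) and between 12M and 18M 1 (3.52%). By transcript row 5 passed on the slope (7.15% of all rows) and 6 between 3M and 18M (5.40%). DESeq2 called 3 member rows between 3M and 18M (3.16% of all rows). The number of all features called moved more. DESeq2 called 567 in place of 44 on the slope, 388 in place of 20 for any difference, 299 in place of 17 between 3M and 18M, 89 in place of 17, 147 in place of 10 and 53 in place of 5 for the 3 steps in order of age, and 749 in place of 6 and 1719 in place of 59 rows on the slope and between 3M and 18M. Annotated rows alone gave 11 on the slope, 7 for any difference and 0 from 3M to 6M, limma gave 21 from 6M to 12M and 10 from 12M to 18M, a robust dispersion gave 23 and 9 for these steps, fitting all 12 libraries gave 6 from 3M to 6M and 1 from 12M to 18M, a minimum mean of 10 reads gave 28 rows between 3M and 18M, and leaving out libraries gave 13 to 115 on the slope and 18 to 34 between 3M and 18M. The cause of these shifts was not tested.

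Of 670 alternative values for the 16 named members, 637 kept their direction and side of the threshold, 33 reversed, and the lowest adjusted p was 0.11. With annotated rows alone the slopes of Meioc 0.032, Syce1 0.00089, Sycp3 0.0015, Stag3 0.00059, Hfm1 0.015 and Sun1 0.092 (log2 per month) turned positive, as did the log2 fold changes from 3M to 18M of Meioc 0.50, Sycp3 0.0011, Stag3 0.00057 and Hfm1 0.36. With length offsets the slopes became Psmc3ip -0.0011, Hfm1 0.00094, Mdc1 0.0033 and Sun1 0.0038, and the fold changes Psmc3ip -0.020, Hfm1 0.022 and Mdc1 0.047. With limma the slope of Sun1 was 0.00068. Leaving out a library gave slopes of -0.0021 to 1.0e-05 for Syce1, -0.0022 to 0.00090 for Sycp3 and -0.0030 to 0.0012 for Sun1, and fold changes of -0.032 to 0.36 for Mei4, -0.77 to 0.018 for Meioc, -0.056 to 0.0026 for Sycp3 and -0.025 to 0.051 for Sun1. The median of the members was 0.0033 log2 per month on the slope and 0.046 from 3M to 18M with annotated rows alone, and 0.0016 and 0.019 with length offsets, against -0.0013 and -0.026 as reported. A log2 of age has another unit and gives no value for that median. The summed level in percent of 3M was 96.9 at 12M and 96.7 at 18M as CPM, and 103.6 at 18M with annotated rows alone, and without single libraries it was 98.3 to 100.3 at 12M and 100.8 to 102.8 at 18M, the higher ends without the second 3M mouse.

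Replicate numbers were not found to pair the mice. Same-numbered libraries of different ages correlated at -0.074 to 0.083 in their deviations, with 0 of 18 pairs above 0.1, and 6 of 12 libraries were closer to their own number. With the replicate block, 0 members were called in each test, 23 features on the slope, and 0 features between 3M and 18M. Leaving out a mouse leaves 2 in its age. Shares of single rows and members under 1 FPKM were the least precise.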
